A study of Mus musculus with 14 samples.

Results

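Ccr7, Cxcr5 and Gpr183 encode receptors that guide lymphocytes into lymphoid tissue or place them within it. They were taken by the gene symbol of the array platform, 3 of 19937 named genes, and each had 1 probe set. The study profiled effector CD8+ T cells of C57BL/6J background on day 6 of infection with Listeria carrying ovalbumin, with 14 single-colour arrays in 5 groups. Donor cells came from fetal liver chimeras and were placed in congenic recipients the day before infection, and the labels of every group except Id2KOBimKO name OT-I, a T cell receptor for an ovalbumin peptide. The groups were KLRG1lo cells labelled Id2KOBimKO, Id2KO and BimKO (2 arrays each), wild-type (WT) KLRG1hi cells (3 arrays) and WT KLRG1lo cells (5 arrays), where KLRG1 is a surface receptor used to sort the more terminal effectors from the rest. The deleter strain, the extent of the deletions, the age of the animals and any pooling are not given in the sources used here, and nothing says that replicates were separate animals, so the p-values rest on the spread among these arrays, which may be technical.

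All of these receptors couple to Gi proteins and sense gradients made by stromal cells. CCR7 follows CCL19 and CCL21 into lymph nodes and the T cell zone, CXCR5 follows CXCL13 into B cell follicles, and GPR183 (EBI2) follows an oxysterol made by CH25H and CYP7B1 to the outer rim of the follicle and the border of the T cell zone. In CD8+ T cells CCR7 is carried by naive and central memory cells and is lost by most effectors, while CXCR5 marks a smaller population that can enter follicles. ID2 holds back E proteins, which bind DNA at the E-box, and E proteins are known to favour Cxcr5 in T cells. BIM, the product of Bcl2l11, promotes cell death at mitochondria.

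Of the receptor promoters, that of Gpr183 was matched in the RefSeq table (assembly GRCm38.p6, 1 of 3 receptors). It is shown for the E-box, the motif bound by the E proteins that ID2 holds back. The window is chr14:121965144-121965443 on the minus strand, from 250 bases before to 50 after the annotated start, and capitals mark the E-box, CANNTG, a motif that reads as itself on both strands.
Gpr183 promoter: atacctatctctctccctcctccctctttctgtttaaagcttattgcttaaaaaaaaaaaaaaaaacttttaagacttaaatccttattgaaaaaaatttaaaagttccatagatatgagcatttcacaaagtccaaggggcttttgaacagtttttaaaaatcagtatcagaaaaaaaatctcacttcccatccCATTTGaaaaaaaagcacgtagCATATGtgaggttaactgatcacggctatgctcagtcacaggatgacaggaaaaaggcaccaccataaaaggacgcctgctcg
The window held 2 matches, which do not overlap. At least 1 match was present in 72.3% of 32851 promoter windows of the same length, and 2 or more in 39.6%. A match describes letters and is not a binding site.

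The arrays had median linear signals of 49.2 to 56.8 and interquartile ranges of log2 signal, called the array spread below, of 2.44 to 2.87. The median log2 signal of probe sets with no gene name, a guide to background, was 5.01 to 5.39. The CD8 T cell markers Cd8a, Cd8b1, Cd3e, Cd3d, Cd3g, Cd2 and Thy1 lay above that level on all 14 arrays, at 9.18 or more. Klrg1 was at least 10.51 in WT KLRG1hi and at most 6.82 elsewhere. Id2 averaged 9.74 ± 0.14 in Id2KOBimKO, 9.80 ± 0.10 in Id2KO and 10.84 ± 0.13 in BimKO (SD, n = 2 each), against 10.93 ± 0.20 in WT KLRG1lo (SD, n = 5). Bcl2l11 was 7.80 ± 0.30 in Id2KOBimKO and 7.51 ± 0.21 in BimKO (SD, n = 2 each), against 7.60 ± 0.19 in WT KLRG1lo (SD, n = 5), so the libraries labelled BimKO or Id2KOBimKO rest on their labels for Bim. Xist was 4.73 ± 0.37 (SD, n = 2) in Id2KO and at least 8.37 on every other array, and Eif2s3y, on the Y chromosome, was 7.79 ± 0.57 (SD, n = 2) in Id2KO and at most 3.66 elsewhere, so the sex of the Id2KO cells and their genotype cannot be told apart. Id2KOBimKO and BimKO did not differ in this way.

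Ccr7, which admits cells to lymph nodes, had log2 signals of 8.57 and 8.15 in Id2KOBimKO, 8.60 and 8.30 in Id2KO and 8.43 and 8.21 in BimKO. In WT KLRG1hi cells it was 6.41, 6.62 and 6.09, against 7.99, 8.31, 7.86, 7.15 and 7.44 in WT KLRG1lo cells. The KLRG1hi arrays were therefore all below the WT KLRG1lo arrays, while each mutant group reached into the upper end of the WT KLRG1lo range. From high to low the group means ran Id2KO, Id2KOBimKO, BimKO, WT KLRG1lo and WT KLRG1hi, and the ranges of neighbours overlapped at every step but the last. All arrays lay above the signal of unnamed probe sets.

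Cxcr5, the follicle receptor, had log2 signals of 7.47 and 7.07 in Id2KOBimKO, 7.63 and 7.80 in Id2KO and 6.35 and 6.67 in BimKO. In WT KLRG1hi cells it was 4.56, 5.16 and 4.51, against 5.86, 6.25, 6.12, 5.64 and 5.68 in WT KLRG1lo cells. No group overlapped its neighbour in the order Id2KO, Id2KOBimKO, BimKO, WT KLRG1lo and WT KLRG1hi. In WT KLRG1hi only 1 of 3 arrays was above its own median of unnamed probe sets, so the level there is near background and the size of differences from it is uncertain.

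Gpr183, the oxysterol receptor, had log2 signals of 8.81 and 8.69 in Id2KOBimKO, 8.82 and 8.96 in Id2KO and 8.61 and 8.93 in BimKO. In WT KLRG1hi cells it was 6.01, 6.52 and 7.11, against 8.10, 8.40, 7.86, 7.96 and 7.87 in WT KLRG1lo cells. BimKO overlapped both other mutant groups, Id2KOBimKO lay below Id2KO, and all mutant arrays lay above every WT KLRG1lo array, while every WT KLRG1lo array lay above every KLRG1hi array. Its order of means was Id2KO, BimKO, Id2KOBimKO, WT KLRG1lo and WT KLRG1hi.

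**Figure D1:**
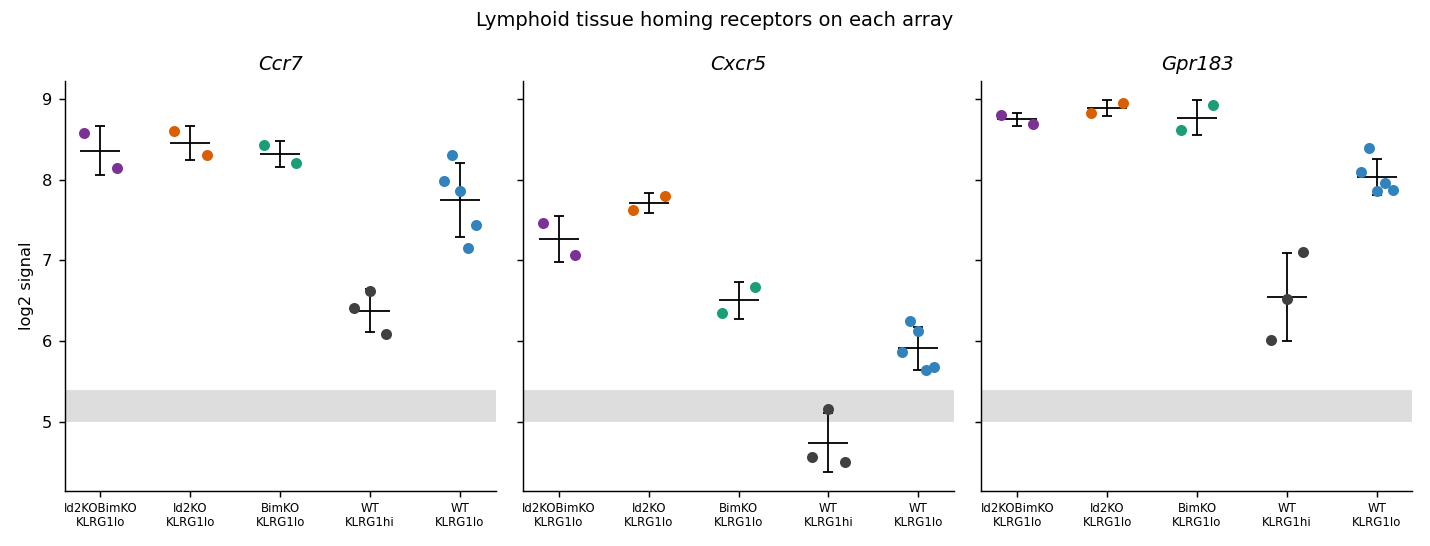
Log2 signal of Ccr7, Cxcr5 and Gpr183 on each of the 14 arrays (points) by group, with the group mean and SD (bars) and the range of the median signal of unnamed probe sets (grey band). WT KLRG1hi arrays are lowest for each receptor, and the 2 Id2KO arrays are highest for Cxcr5 at 7.63 and 7.80.

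WT KLRG1hi cells were set against WT KLRG1lo cells to describe which of the receptors part the sorted populations. All 3 fell in KLRG1hi cells. Gpr183 averaged 6.55 ± 0.55 in the 3 KLRG1hi samples and 8.04 ± 0.22 in the 5 KLRG1lo samples (mean ± SD), a log2 difference of -1.49 or a fold of 2.81 (95% interval of the difference -1.91 to -1.07, limma adjusted p = 0.000862). Ccr7 averaged 6.37 ± 0.27 in KLRG1hi and 7.75 ± 0.46 in KLRG1lo, a difference of -1.38 or a fold of 2.60 (interval -1.84 to -0.91, adjusted p = 0.00371). Cxcr5 averaged 4.74 ± 0.36 in KLRG1hi and 5.91 ± 0.27 in KLRG1lo, a difference of -1.17 or a fold of 2.25 (interval -1.57 to -0.77, adjusted p = 0.00371). Among all genes tested 0.942% passed, made up of 0.263% lower in KLRG1hi, as these receptors were, and 0.679% higher. All KLRG1hi arrays lay under all KLRG1lo arrays for 1.77% of genes, these receptors among them, and above them for 2.41%. These p-values come from limma fitted to all genes and all arrays, with Benjamini-Hochberg adjustment, and fewer cells carrying a transcript and less of it per cell cannot be told apart in such bulk samples.

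Cells labelled Id2KO were set against WT KLRG1lo cells to ask how the receptors differ when Id2 is targeted. Sex differed along with genotype in this comparison, and their parts cannot be told apart. Cxcr5 rose, with a mean of 7.71 ± 0.12 over the 2 Id2KO arrays and 5.91 ± 0.27 over the 5 WT KLRG1lo arrays (SD), a fold of 3.49 (log2 difference 1.80, interval 1.35 to 2.26, limma adjusted p = 0.000547). It was the fifth gene by p among the 14438 tested, of which 0.111% passed, 0.0831% higher and 0.0277% lower. Gpr183 averaged 8.89 ± 0.10 in Id2KO and 8.04 ± 0.22 in WT, differing by 0.85 (interval 0.37 to 1.34) without passing (adjusted p = 0.275). Both Id2KO arrays were above all WT KLRG1lo arrays for Cxcr5 and Gpr183, as was the case for 14.2% of genes. Ccr7 averaged 8.45 ± 0.21 in Id2KO and 7.75 ± 0.46 in WT, differing by 0.70 (interval 0.17 to 1.23, adjusted p = 0.275). The call on Cxcr5 was lost without Id2KO replicate 2, where the difference was 1.72 (adjusted p = 0.0659).

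Among cells that all carry the BimKO label, Id2KOBimKO was set against BimKO. Cxcr5 was 7.27 ± 0.28 in Id2KOBimKO and 6.51 ± 0.23 in BimKO (SD, n = 2 each), a difference of 0.76 (interval 0.22 to 1.30) that did not pass (adjusted p = 0.9999), although its unadjusted p of 0.00878 was the 60th smallest. Ccr7 (0.04, interval -0.60 to 0.68) and Gpr183 (-0.02, interval -0.60 to 0.56) gave differences near 0 with wide intervals. By this limma test 0% of genes passed here, that is 0 genes, while 262 had an unadjusted p under 0.05, and for Cxcr5 all Id2KOBimKO arrays were above all BimKO arrays, as for 17.6% of genes, with 12% the other way. Averaged over both Bim backgrounds the Id2 effect on Cxcr5 was 1.28 (SE 0.17, interval 0.93 to 1.63, adjusted p = 0.00137), the seventh smallest p. Of all genes 0.18% passed in this comparison, 0.152% higher and 0.0277% lower. The average includes Id2KO against WT, where sex and genotype cannot be told apart. Its other part, Id2KOBimKO against BimKO, did not pass for Cxcr5. For Gpr183 the average effect was 0.42 (interval 0.04 to 0.79) and for Ccr7 it was 0.37 (interval -0.05 to 0.79), both at adjusted p = 0.62.

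The interaction, the Id2 effect with the BimKO label minus that without it, was -1.04 for Cxcr5 (interval -1.75 to -0.34), -0.87 for Gpr183 (interval -1.63 to -0.11) and -0.66 for Ccr7 (interval -1.49 to 0.17). None of these interactions passed (limma adjusted p = 0.726 for each), with unadjusted p-values of 0.00628, 0.0266 and 0.113 in that order. Of all genes 0.0277% passed, 0.00693% higher and 0.0208% lower. The Id2KO arrays enter the interaction, so sex and genotype cannot be told apart in it. A difference in the Id2 effect between Bim backgrounds was thus not established for any of the receptors.

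BimKO alone was set against WT KLRG1lo, the same WT arrays that serve Id2KO. The 3 receptors were higher in BimKO by similar amounts, Gpr183 by 0.73 (interval 0.25 to 1.22), Cxcr5 by 0.60 (interval 0.14 to 1.05) and Ccr7 by 0.57 (interval 0.04 to 1.10), and none passed (limma adjusted p = 0.657 for each). No gene passed in this comparison (0%), with 998 at an unadjusted p under 0.05. Both BimKO arrays exceeded all WT KLRG1lo arrays for Cxcr5 and Gpr183, as for 5.6% of genes (6.99% the other way), and overlapped them for Ccr7. Side by side, with the WT arrays shared, BimKO and Id2KO differed from WT by 0.73 and 0.85 for Gpr183, by 0.57 and 0.70 for Ccr7 and by 0.60 and 1.80 for Cxcr5.

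Id2KOBimKO cells differed from WT KLRG1lo in Cxcr5, which rose by 1.36 (SE 0.21, interval 0.90 to 1.81, limma adjusted p = 0.0182), where 0.0623% of genes passed, 0.0485% higher and 0.0139% lower. Gpr183 (0.71, interval 0.23 to 1.20) and Ccr7 (0.61, interval 0.08 to 1.14) did not pass (adjusted p = 0.785 for both). All Id2KOBimKO arrays were above all WT KLRG1lo arrays for Cxcr5 and Gpr183, as for 5.29% of genes (7.27% the other way), and overlapped them for Ccr7. The Cxcr5 call was lost, with differences of 1.34, 1.29 and 1.30 (adjusted p = 0.0520, 0.0540 and 0.0624), without WT KLRG1lo replicates 1, 4 and 5 in turn. It was also lost without Id2KOBimKO replicate 1 (1.16, adjusted p = 0.8) or 2 (1.55, adjusted p = 0.335), and under median centring (1.42, adjusted p = 0.09). Against Id2KO the Id2KOBimKO cells had lower values, by -0.45 for Cxcr5 (interval -0.99 to 0.09), -0.14 for Gpr183 (interval -0.72 to 0.44) and -0.09 for Ccr7 (interval -0.73 to 0.55). None passed (limma adjusted p = 0.9998), while 0.0277% of genes did, 0.00693% higher and 0.0208% lower. Id2KO also differed from Id2KOBimKO in sex-linked genes, with Xist at 4.73 against 9.69 and Eif2s3y at 7.79 against 3.04. Sex and the Bim label therefore cannot be told apart in these shares. All Id2KOBimKO arrays were below all Id2KO arrays for Cxcr5 and Gpr183, as for 21% of genes (16.4% the other way).

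**Figure D2:**
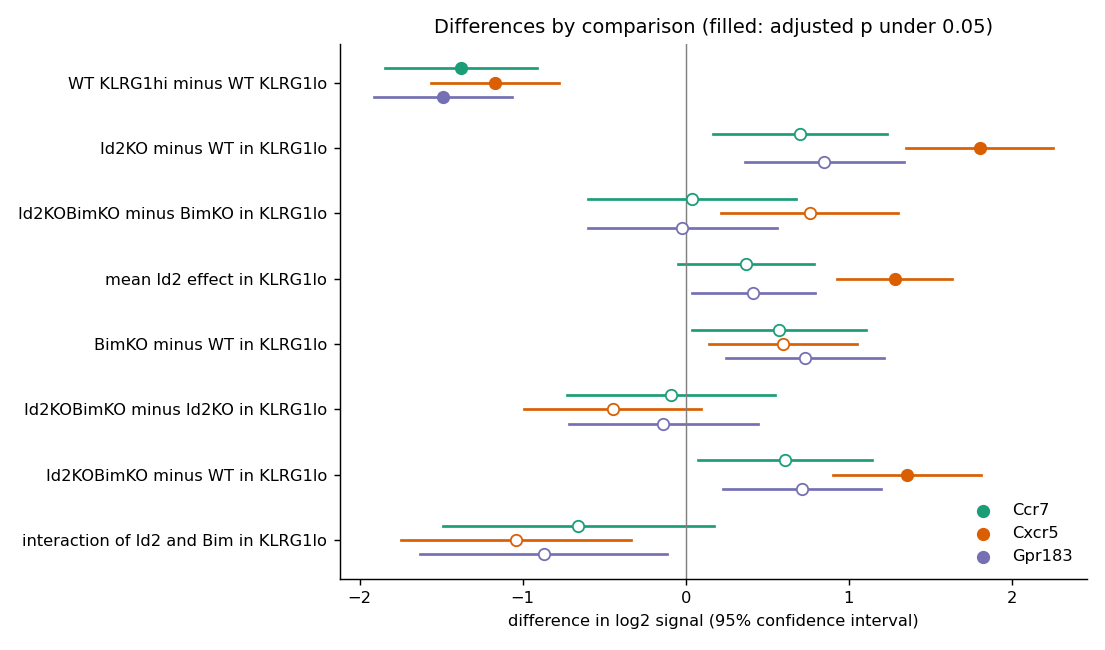
Difference in log2 signal with its 95% confidence interval for Ccr7, Cxcr5 and Gpr183 in the 8 comparisons, from the limma fit to all 14 arrays, with filled points where the adjusted p was under 0.05. The receptors lie together at -1.17 to -1.49 in WT KLRG1hi, while in Id2KO Cxcr5 (1.80) lies above Gpr183 (0.85) and Ccr7 (0.70).

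Within groups the receptors did not all follow one another. With each group's mean taken out, the log2 signals of Ccr7 and Cxcr5 correlated at r = 0.70 over the 14 arrays, Cxcr5 and Gpr183 at 0.24 and Ccr7 and Gpr183 at 0.09. With the groups left in, the same pairs gave 0.90, 0.89 and 0.91, values that carry the group differences and any shared property of the arrays. Gpr183 moved with the array spread inside groups (r = 0.91 after group means were taken out), more closely than Ccr7 (0.37) or Cxcr5 (0.35). In WT KLRG1hi its 6.01, 6.52 and 7.11 stood beside spreads of 2.44, 2.67 and 2.84. With the array spread in the model, Gpr183 still differed between KLRG1hi and KLRG1lo, by -1.58 (SE 0.11, limma adjusted p = 7.72e-07), and its difference between Id2KO and WT was 0.35 in place of 0.85. Cxcr5 then differed by 1.63 (SE 0.24, adjusted p = 0.00594) between Id2KO and WT. The part of the array spread in these differences was not tested further.

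**Figure D3:**
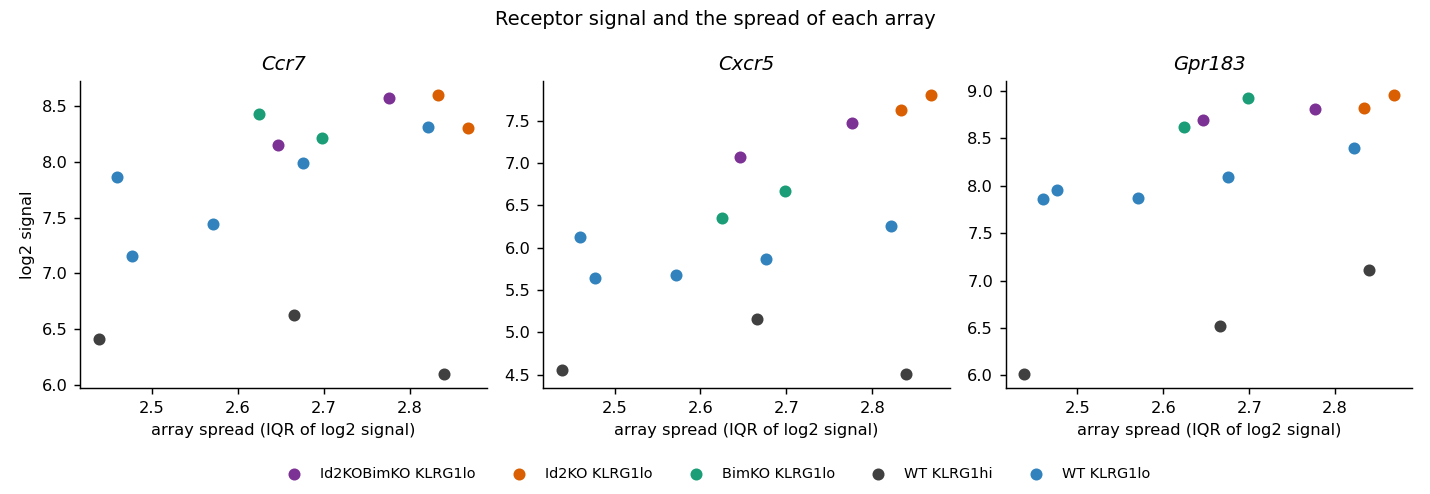
Log2 signal of each receptor against the array spread (interquartile range of all log2 signals on the array), 1 point per array, coloured by group. Gpr183 is higher on arrays of wider spread inside the WT groups, and the Id2KO arrays have spreads of 2.83 and 2.87.

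The arrays parted into 2 sets at the widest gap in the median signal of unnamed probe sets, and the lower set held 6 arrays, 2 each of WT KLRG1hi and WT KLRG1lo and 1 each of Id2KOBimKO and Id2KO. Within the lower and the upper set, WT KLRG1hi differed from WT KLRG1lo by -1.63 and -1.39 for Ccr7, by -1.20 and -1.31 for Cxcr5 and by -1.98 and -0.79 for Gpr183, so the sign was kept in both and the size for Gpr183 was not alike. Id2KO differed from WT KLRG1lo by 1.57 in the lower set and 1.99 in the upper set for Cxcr5, by 0.57 and 1.06 for Gpr183 and by 0.45 and 0.82 for Ccr7. Both BimKO arrays lay in the upper set, so their comparisons have no value in the lower set. In the upper set BimKO differed from WT KLRG1lo by 0.84 for Ccr7, 0.69 for Cxcr5 and 0.87 for Gpr183. Id2KOBimKO differed there from BimKO by -0.17 for Ccr7, 0.56 for Cxcr5 and -0.08 for Gpr183. These within-set values have no test, with 1 to 3 arrays in each group compared.

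B cells, dendritic cells and follicular CD4 T cells also carry some or all of these receptors, so their markers were read on the same arrays. Of 9 B cell markers measured, those above the unnamed probe sets numbered 4 to 5 in Id2KOBimKO, 4 to 5 in Id2KO, 3 to 7 in BimKO and 4 in WT KLRG1hi, against 4 to 8 in WT KLRG1lo. Their summed linear signal was 449 to 517 in Id2KOBimKO, 397 to 429 in Id2KO, 396 to 572 in BimKO and 335 to 391 in WT KLRG1hi, against 403 to 708 in WT KLRG1lo. It was thus lowest in WT KLRG1hi, where the receptors were lowest, and in Id2KO, where Cxcr5 was highest, it lay near the lower end of WT KLRG1lo. All 7 B cell markers tested were lower in WT KLRG1hi than in WT KLRG1lo, as the receptors were, with a median difference of -0.37. In the mean Id2 effect 1 was positive and 6 were negative, with a median of -0.15. None of the 7 passed in any comparison, and their part in the results on the receptors was not tested. Cd79b, Cd22 and Pax5 were above the unnamed probe sets on all 14 arrays and Blk on 13. Cd79a was above them on 6 arrays, Ms4a1 (CD20) and Fcrla on 2 each, Cr2 on 1 and Ebf1 on 0. The 5 CD4 and regulatory T cell markers summed to 469 to 476 in Id2KOBimKO and 411 to 419 in Id2KO. They summed to 368 to 402 in BimKO and 358 to 393 in WT KLRG1hi, against 349 to 421 in WT KLRG1lo. That sum was led by Zbtb7b, which averaged 8.09 in Id2KOBimKO and 7.82 in Id2KO, against 7.41 in WT KLRG1lo. Cd40lg also averaged higher in Id2KOBimKO and Id2KO than in WT KLRG1lo, while Cd4, Foxp3 and Ikzf4 averaged lower in both. Foxp3, Zbtb7b and Ikzf4 were above the unnamed probe sets on 14 arrays, Cd4 on 11 and Cd40lg on 3. The 11 dendritic cell markers summed to 1449 to 1753 in Id2KOBimKO and 1558 to 1621 in Id2KO. They summed to 1460 to 1993 in BimKO and 1656 to 2739 in WT KLRG1hi, against 1715 to 2049 in WT KLRG1lo. The sum was led by Itgax, which effector T cells also express. Itgax, Zbtb46 and Bst2 were above the unnamed probe sets on 14 arrays, Flt3 on 13 and H2-Ab1 on 12. Cd74 and Xcr1 were above them on 11 arrays, Siglech on 6, Clec10a on 2, and Clec9a and Cd209a on 0. The 7 monocyte and macrophage markers summed to 353 to 476 in Id2KOBimKO, 362 to 382 in Id2KO, 346 to 562 in BimKO and 451 to 510 in WT KLRG1hi, against 403 to 816 in WT KLRG1lo.

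Cd74 encodes the chaperone of MHC class II molecules, which B cells and dendritic cells express strongly. Its log2 signal was 6.25 and 7.77 in Id2KOBimKO, 5.61 and 4.67 in Id2KO, 5.21 and 8.63 in BimKO and 4.88 to 5.54 in WT KLRG1hi, against 5.73, 5.73, 8.46, 8.73 and 7.98 in WT KLRG1lo. It was above 7 on 5 arrays, WT KLRG1lo 3 to 5 and the second array of BimKO and of Id2KOBimKO, and at most 6.25 on the other 9. WT KLRG1lo arrays 4 and 5, the lowest of their group for Ccr7, were among those 5. Without the 5 arrays Ccr7 and Gpr183 remained lower in KLRG1hi than in KLRG1lo, by -1.77 (limma adjusted p = 0.0141) and -1.70 (adjusted p = 0.0427), and Cxcr5 was at -1.32 but no longer passed (adjusted p = 0.0727). Cxcr5 was then at 1.66 in Id2KO against WT, in place of 1.80, and at 1.39 as the mean Id2 effect, in place of 1.28. It passed in neither comparison. That fit kept 9 arrays, with 1 each of BimKO and Id2KOBimKO. Ccr7 was at 0.30 in Id2KO against WT, in place of 0.70, so for Ccr7 that difference depended on WT KLRG1lo arrays 3 to 5. All 5 arrays with high Cd74 lay in the upper array set, and WT KLRG1lo arrays 3 to 5 were its only WT KLRG1lo arrays. Their array spreads were 2.46, 2.48 and 2.57, against 2.68 and 2.82 for WT KLRG1lo arrays 1 and 2. High Cd74, array set and array spread therefore cannot be told apart within WT KLRG1lo. The part of cells carrying Cd74 in these results was not tested.

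**Figure D4:**
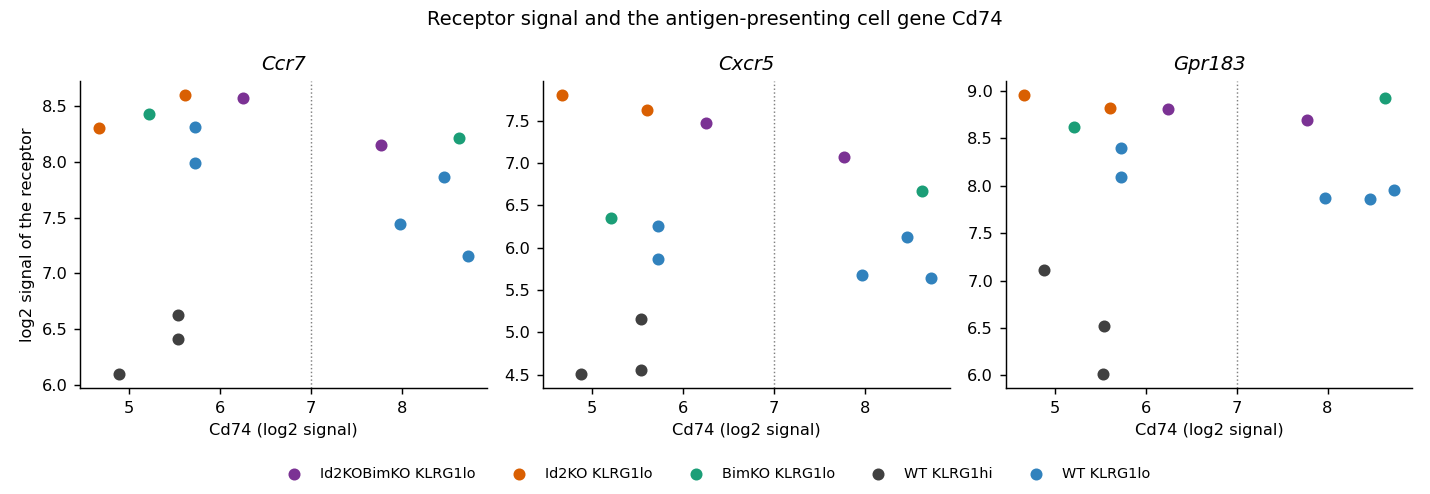
Log2 signal of each receptor against that of Cd74, 1 point per array, coloured by group, with a dotted line at 7. The 5 arrays right of the line do not have the highest Cxcr5, and the Id2KO arrays, with Cd74 at 5.61 and 4.67, do.

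The genes around these receptors were read from lists of ligands and their enzymes, decoy receptors, entry and egress genes, Gi signalling, transcription factors and receptors for blood and inflamed tissue. Of 49 genes listed, 43 were measured by a probe set of a single name and 37 passed the filter on low signal; Ccl21a and Grk2 were among those not analysed here. Of the ligand genes and enzymes Ccl19 and Hsd3b7 were tested, and neither passed in any comparison. Ccl19 had 4 probe sets, of which only that of highest mean was read. It was at -0.61 in WT KLRG1hi against WT KLRG1lo (SE 0.19, limma adjusted p = 0.238), and Cxcl13, Ch25h and Cyp7b1 did not pass the filter. The scavenging receptor Ackr2 was at -0.06 in that comparison (SE 0.18).

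Of 6 other genes of lymph node entry and egress tested, 0 passed in any comparison. Their median in WT KLRG1hi against WT KLRG1lo was 0.23, where all genes had 0.002, with 4 positive and 2 negative. Itgal, a chain of the integrin LFA-1, was at 0.44 (limma adjusted p = 0.775). In the mean Id2 effect all 6 were positive with a median of 0.23 (all genes 0.02, or 0.10 with the filter at the 60th percentile). The 7 CD8 T cell markers were all positive there too, with a median of 0.29, so this shift was not particular to the list. Itgb7, an integrin chain of gut homing, was at 0.58 (SE 0.25) and Cd69, which retains cells in tissue by opposing S1PR1, at 0.45 (SE 0.23), each at adjusted p = 0.62.

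Of 15 genes of Gi signalling and desensitisation, 0 passed in any comparison, with medians of 0.14 in WT KLRG1hi against WT KLRG1lo and 0.20 in the mean Id2 effect. Dock2, the exchange factor that drives lymphocyte migration, was at 0.48 (SE 0.17) in the mean Id2 effect, the receptor kinase gene Grk6 at 0.51 (SE 0.19) and the G protein gene Gnai2 at 0.55 (SE 0.21), each at limma adjusted p = 0.62. Of 8 transcription factor genes only Id2 passed, at -1.11 in the mean Id2 effect, where the median of the list was 0.13. Bcl6 and Ascl2, given here for their known role in follicular T cells and outside the naming rule, were at -0.45 (SE 0.14, adjusted p = 0.515) and -0.17 (SE 0.14, adjusted p = 0.651) in that comparison. Id3, which also holds back E proteins and was named after its values were seen, was at 1.18 (SE 0.25, adjusted p = 0.0811), the highest of the list. In that comparison 5 of the 8 were positive and 3 negative.

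Of 5 receptors for blood and inflamed tissue, Cx3cr1 (2.04) and S1pr5 (1.72) rose in WT KLRG1hi against WT KLRG1lo, where 0.942% of genes passed, and fell in Id2KO against WT KLRG1lo (-1.77 and -1.05), where 0.111% passed. Cx3cr1 also fell in Id2KOBimKO against WT (-1.44; 0.0623% of genes passed) and in the mean Id2 effect (-1.20; 0.18% of genes passed), and S1pr5 passed in neither (-0.88 and -0.67). The other members, Cxcr3, Cxcr6 and Ccr2, passed in none of these comparisons. Cx3cr1, the fractalkine receptor, was 6.90 ± 0.12 in Id2KOBimKO, 6.57 ± 0.08 in Id2KO and 7.52 ± 0.03 in BimKO (SD, n = 2 each), 10.38 ± 0.54 in WT KLRG1hi (SD, n = 3) and 8.34 ± 0.22 in WT KLRG1lo (SD, n = 5). The order of its group means was the reverse of that of Cxcr5. S1pr5, an egress receptor, averaged 6.44 in Id2KOBimKO, 6.27 in Id2KO, 6.73 in BimKO and 9.04 in WT KLRG1hi, against 7.32 in WT KLRG1lo. Cxcr3, a receptor for inflamed tissue named after its values were seen, averaged 11.84 in Id2KOBimKO, 12.06 in Id2KO, 11.40 in BimKO and 10.48 in WT KLRG1hi, against 11.19 in WT KLRG1lo. Its group means ran in the same order as those of Cxcr5, without passing in WT KLRG1hi against WT KLRG1lo (-0.71, limma adjusted p = 0.287) or in the mean Id2 effect (0.65, adjusted p = 0.529).

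The genes whose log2 signal most resembled each receptor were ranked by Pearson r over the 14 arrays, which share groups, background and spread. For Ccr7 they were Myc (r = 0.96), Dapl1 (0.94), Pecam1 (0.93), Il6st (0.92) and Ext1 (0.92). For Cxcr5 they were Btla, an inhibitory receptor of follicular and other lymphocytes (0.95), Actn1 (0.94), Myb (0.94), Rtp4 (0.94) and Apobec3 (0.94). For Gpr183 they were Slamf6, a marker of less differentiated CD8 T cells (0.98), Pecam1 (0.98), Aff3 (0.97), Mdn1 (0.97) and Il6st (0.97). Having been ranked on arrays that include the group differences, these genes share the group pattern of their receptor by choice, and no count of calls is read from them. As a description, the difference between WT KLRG1hi and WT KLRG1lo was -1.32 for Myc, -1.05 for Btla and -1.43 for Slamf6. With group means taken out the closest genes were others, Rab2a (0.95), Mrpl45 (0.94) and B3galt4 (0.93) for Ccr7, Magi3 (0.94), Cwf19l1 (0.88) and Ska3 (0.87) for Cxcr5, and Gimap5 (0.99), Tap2 (0.98) and Slc38a10 (0.98) for Gpr183.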

How the data were processed

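RNA of 14 sorted samples was hybridised to single-colour arrays. The deposited values are the authors' RMA intensity, per the submitters' processing notes (RMA without a version, mouse assembly mm9). That their scale is linear was inferred from their range, and centring against scanner values is not known here. From the 34760 probe sets, 21640 with a single name were kept, and 21553 were given current symbols through Entrez numbers in a RefSeq table (GRCm38.p6). Intensities were turned into log2 with no offset, and the probe set of highest mean stood for a gene. A gene was tested above the 40th percentile on at least 2 arrays (14438 of 19937). limma 3.58.1 (R 4.3.3) fitted 5 group means to all arrays with 9 residual degrees of freedom, and a gene passed at a two-sided Benjamini-Hochberg adjusted p under 0.05 over all genes tested. The fit was tested on simulated data. The precision is limited by the number of arrays.

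The receptors, lists and tests were chosen with earlier results of these data known. Named besides the receptors were label checks, list genes that passed or else up to 3 with the smallest p between the WT populations or in the mean Id2 effect, and the 5 genes most like each receptor (3 with group means taken out). Alternatives covered filter, scaling, offset, variance model, replicate block, groups fitted, probe set summary, array spread, array set (2 sets by background), each array left out and, added after seeing the data, arrays with high Cd74.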

Additional observations from a re-analysis of the deposited data

How the results depend on the processing

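The fall of all 3 receptors in WT KLRG1hi passed under all 25 alternatives other than the removal of arrays with high Cd74, with Ccr7 from -1.68 to -1.23, Cxcr5 from -1.38 to -0.83 and Gpr183 from -1.77 to -1.22, and 2 receptors passed without the arrays of high Cd74. For Id2KO against WT, 0 to 1 receptors passed with each array left out. The mean Id2 effect gave 1 in each alternative other than the removal of arrays with high Cd74. Without those arrays no receptor passed in either comparison, in a fit with 1 array each of BimKO and Id2KOBimKO. The reason was not tested. For Id2KOBimKO against WT, 0 to 1 passed with each array left out, 0 under median centring, 0 without the arrays of high Cd74, and 0 with the replicate block, where Cxcr5 was at 1.14 (limma adjusted p = 0.483); the block changed no other call. Deviations of same-numbered arrays correlated over 0.1 in 10 of 21 pairs (median r 0.06). Those of differently numbered arrays did so in 17 of 54 pairs (median r -0.01). These values do not settle whether the numbers pair the arrays. The sign turned, among differences that did not pass, for Ccr7 in Id2KOBimKO against BimKO with the array spread (-0.00467) and the array set (-0.21) in the model and from -0.17 to 0.25 with each array left out. It turned for Ccr7 in Id2KOBimKO against Id2KO under quantile normalization (0.0279), with the array spread (0.0382), without the arrays of high Cd74 (0.12) and from -0.30 to 0.12 with each array left out. It turned for Gpr183 in Id2KOBimKO against BimKO under median centring (0.00699), with the array set (0.00684), without the arrays of high Cd74 (0.19) and from -0.18 to 0.14 with each array left out, and against Id2KO with the array spread (0.14). The cause was not tested. Counts over all genes ran from 33 to 376 (136 in the fit reported) for the WT populations, 4 to 39 (16) for Id2KO, 3 to 52 (26) for the mean Id2 effect, 0 to 24 (9) for Id2KOBimKO against WT, 0 to 8 (0) for BimKO, 0 to 4 (0) for Id2KOBimKO against BimKO, 4 to 7 (4) against Id2KO and 1 to 6 (4) for the interaction. Signal near background limits Cxcr5 in WT KLRG1hi.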
